A study of Mus musculus with 12 samples.

Results

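Class I major histocompatibility (MHC) presentation was followed through 10 genes: the heavy chains H2-K1 and H2-D1, the light chain B2m, the peptide transport and loading genes Tap1, Tap2 and Tapbp, the immunoproteasome subunits Psmb8, Psmb9 and Psmb10, and the regulator Nlrc5. They were taken by gene name, with earlier results of these data known, and are 10 of the 55385 features in the deposited expression table. All 10 had a mean of at least 1 TPM (transcript abundance per length, scaled to the same total in every sample) over the 12 samples, the minimum for testing that 16378 features passed. The study sequenced strand-specific libraries of total liver RNA from male C57BL/6 mice that were 7 weeks old and were killed 7 days after an adenovirus injection. The 12 samples form 3 groups of 4 mice. Control mice (GULL_control) received Lac virus with pAdv5, knockdown mice (mGULL_knockdown) received shmGULL with pAdv5, and rescue mice (hGULL_rescue) received shmGULL with hGULL. Here shmGULL is a short hairpin RNA against the mouse long noncoding RNA mGULL, and hGULL is its human counterpart. Each group was given the same total of active viral particles, so the controls carried adenovirus too and no group was free of virus. The labels call the injection intravitreal, and the study's methods use both that word and retro-orbital. The samples of a group are separate mice. The level of mGULL itself was not analysed here. The values are TPM, so the sequencing depth behind them is unknown and no counting interval is given.

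The tissue label was checked against markers. All 8 hepatocyte markers (Alb, Ttr, Apoa1, Apob, Serpina1c, Cps1, Tat and Hnf4a) were above 0 in every sample, and Alb was the most abundant at a mean of 56814 TPM. Their summed level was 86365, 116003, 100700.1 and 80473 TPM in the controls, 90345, 84729, 98850.4 and 87400.4 in the knockdown samples and 72932, 81353, 87212 and 79262 in the rescue samples, here and below in the order of replicates 1 to 4. Because these are whole livers, fewer cells of a type and less RNA per cell cannot be told apart. Control 1 and knockdown 1 differed from the rest of their groups in immune genes. Over all tested genes control 2 and knockdown 2 lay about as far from their groups, with a median absolute log2 difference from the mean of the others of 0.205 and 0.205 in controls 1 and 2 and 0.263 and 0.258 in knockdown 1 and 2. Control 1 had the highest sums of class II presentation genes (1775 TPM against 409 to 679 in the other controls) and of T and NK cell markers (124 TPM against 37.7 to 63.9). Knockdown 1 had the lowest level of the leukocyte marker Ptprc of all 12 samples (6.54 TPM), the lowest T and NK cell sum of its group (42.2 TPM) and the lowest B2m of all samples (2298 TPM). Many results are also given without these libraries, a choice made after seeing the data. In the mean of the z-scored log2(TPM + 1) values of the 10 members, control 1 was the highest sample (1.46) and knockdown 1 the lowest (-1.65). Leaving out both therefore always shrinks the difference in that mean between knockdown and control.

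Class I molecules show peptides from inside the cell to CD8 T cells and inhibit NK cells. The proteasome cuts cytosolic proteins, the TAP1-TAP2 transporter carries the peptides into the endoplasmic reticulum, tapasin (Tapbp) holds the empty heavy chain and B2m beside the transporter, and the loaded complex moves to the surface. Interferons raise most of these genes and replace the constitutive catalytic subunits Psmb5, Psmb6 and Psmb7 with Psmb8, Psmb9 and Psmb10, and in liver, resting hepatocytes are known for low class I levels.

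Promoter sequences of 5 of the genes are shown, because known inputs to this pathway are short DNA motifs near the start sites. RefSeq windows of 300 bases (250 before to 50 after the start, build GRCm38.p6) were matched for 8 of the 10 genes, which leaves Tap2 and Nlrc5. Each window was searched on both strands for 6 motifs: GAAA repeated after a gap of 2 bases (the interferon-stimulated response element), a class I interferon consensus sequence GAAGNGAAA, the gamma-activated site TTCNNNGAA, the Y box CCAAT and the X2 core TGACG of the class I SXY module through which NLRC5 acts, and the kappaB motif. Of all 32851 windows of this length, 3.44% held the first, 2.44% the class I consensus, 8.30% the gamma-activated site, 37.4% CCAAT, 20.8% TGACG and 8.46% a kappaB match. The 4 sequences printed here are the plus strand upstream of the start, and capitals mark every match on either strand. Tap1 and Psmb9 are transcribed away from each other from starts 225 bases apart, so 1 stretch (chr17:34187331-34187555) is the promoter of both. The others are B2m (chr2:122147437-122147686), H2-D1 (chr17:35262844-35263093) and Psmb8 (chr17:34197945-34198194).
Tap1 and Psmb9: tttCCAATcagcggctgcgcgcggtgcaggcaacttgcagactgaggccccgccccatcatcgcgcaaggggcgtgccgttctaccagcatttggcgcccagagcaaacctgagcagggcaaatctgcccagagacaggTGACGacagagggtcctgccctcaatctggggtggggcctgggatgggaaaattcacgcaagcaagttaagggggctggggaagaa
B2m: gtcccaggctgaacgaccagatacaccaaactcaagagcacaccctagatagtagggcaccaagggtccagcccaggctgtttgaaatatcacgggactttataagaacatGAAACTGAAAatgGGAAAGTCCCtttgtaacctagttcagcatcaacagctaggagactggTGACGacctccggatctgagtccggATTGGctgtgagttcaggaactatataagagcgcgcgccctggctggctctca
H2-D1: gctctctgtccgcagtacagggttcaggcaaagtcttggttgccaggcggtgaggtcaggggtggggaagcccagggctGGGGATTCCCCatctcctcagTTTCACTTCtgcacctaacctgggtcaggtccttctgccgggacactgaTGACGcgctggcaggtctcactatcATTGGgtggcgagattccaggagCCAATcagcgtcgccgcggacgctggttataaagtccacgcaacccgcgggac
Psmb8: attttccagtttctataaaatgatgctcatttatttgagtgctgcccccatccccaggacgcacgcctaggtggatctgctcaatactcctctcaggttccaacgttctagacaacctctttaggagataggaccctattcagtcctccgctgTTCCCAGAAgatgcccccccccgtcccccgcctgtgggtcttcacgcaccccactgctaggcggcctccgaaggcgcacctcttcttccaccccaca

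The B2m window held the interferon-stimulated motif 139 to 130 bases before the start, a kappaB match on the opposite strand at 126 to 117, TGACG at 78 to 74, CCAAT on the opposite strand at 53 to 49 and TGACG on the opposite strand 44 to 48 bases after the start. H2-D1 held a pair of kappaB matches that overlap (171 to 161 bases before the start), the class I consensus on the opposite strand at 150 to 142, TGACG at 101 to 97, and CCAAT at 76 to 72 (opposite strand) and 53 to 49. The 2 windows of H2-K1 held the same kinds of match, and the longest run of bases that H2-K1 and H2-D1 share is 47. The stretch between Tap1 and Psmb9 held CCAAT, 8 to 4 bases before the Psmb9 start, and TGACG, 86 to 82 bases before the Tap1 start. The Psmb8 window held the gamma-activated motif at 97 to 89, and Tapbp held 2 CCAAT matches on the opposite strand. None of these letters was found in the window of Psmb10. A match describes letters only and no binding was measured.

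The knockdown and control groups were compared to ask which genes change when mGULL is reduced in liver. Tap1 averaged 71.8 ± 14.8 TPM (SD, n = 4) in the controls and 44.9 ± 11.5 TPM after knockdown, and Psmb9 went from 40.5 ± 11.3 to 23.9 ± 7.98 TPM. A gene was called, by the threshold of the study's methods, at a log2 fold change beyond 0.5 with unadjusted P under 0.05 in limma, on log2(TPM + 1) values. By this rule 4 of the 10 genes were lower (Psmb9, Tap1, Tap2 and Psmb8), against 2.30% of all tested genes, and 0 of 10 were higher, against 5.35%. The fold change was negative for 10 of 10, where 5647 of the 16378 tested genes were negative. All 10 were negative under each of the 3 other scalings too. The median was -0.43 against 0.087 over all tested genes. For 2 of 10, Tap1 and Nlrc5, all 4 knockdown samples lay below all 4 controls, against 2.06% of tested genes, and for 0 of 10 above, against 6.93%. With Benjamini-Hochberg adjusted p under 0.05 over all tested genes, limma called 0 of 10 against 3.23%, while 6 of 10 had an unadjusted P under 0.05, all lower, where 786 of the 16378 tested genes were lower and 2530 higher at that level. The adjusted calls over all tested genes, 130 lower and 399 higher, became 6 and 27 with only the 2 groups compared, 37 and 128 without control 3, 50 and 126 without control 2 (0 members each), and 351 and 332 under the median of ratios (3 members). They rose to 242 and 815 without knockdown 3 (3 members) and to 166 and 780 without control 1 (0 members). Without control 1 and knockdown 1, 1 of the 10 remained past the threshold, Tap2 at a log2 fold change of -0.54, 7 of 10 stayed negative, and the median was -0.28 against 0.15 over all tested genes. Of all tested genes 307 were then called lower and 1492 higher, where 377 and 876 were as reported.

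The rescue and knockdown groups were compared to ask what the human RNA changes in mice that also carry the hairpin. Tap1 averaged 72.9 ± 5.73 TPM (SD, n = 4) with rescue and Psmb9 41.8 ± 7.31 TPM. Of the 10 genes, 2 were called higher than after knockdown (Psmb9 and Tap1), against 2.33% of all tested genes, and 0 lower, against 0.672%. The fold change was positive for 10 of 10, where 11615 of the 16378 tested genes were positive. All 10 were positive under each other scaling too. The median was 0.37 against 0.093 over all tested genes. In Tap1 and Nlrc5, 2 of 10, every rescue sample lay above every knockdown sample, against 5.40% of tested genes, and 0 of 10 lay wholly below, against 0.983%. By adjusted p, limma called 0 of 10 and 0 (0%) of all tested genes, and 4 of 10 had an unadjusted P under 0.05, all higher, where 230 of the 16378 were lower and 1527 higher. Psmb9 and Tap1 stayed called without control 1 and knockdown 1, at 0.64 and 0.54. Leaving out knockdown 2 raised the count from 2 to 4, with B2m at 0.53 and Nlrc5 at 0.55, and raised the higher calls over all tested genes from 382 to 721. Without knockdown 1 those higher calls fell to 252, with 2 members called. This comparison and the one with the controls share the 4 knockdown samples, so a low knockdown value enters both.

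Rescue against control asks whether mice with the hairpin and the human RNA differ from mice without either. None of the 10 genes was called in limma, with 0 lower against 0.641% of all tested genes and 0 higher against 6.84%. No gene of the 10 had an unadjusted P under 0.05, where 179 of the 16378 were lower and 3970 higher, and 0 of 10 passed adjusted p against 2.15%. That share moved with the samples and the model: the 4 lower and 348 higher genes became 1 and 10 under the median of ratios, 0 and 5 without control 2, 0 and 3 without control 3 or 4, and 125 and 3059 with array weights, with 0 members each time. The groups overlapped for every member, with 0 wholly below against 0.855% and 0 wholly above against 21.4%. Over all tested genes the median log2 fold change was 0.17, and scaling by the median of ratios moved it to -0.0055, so the members are given relative to that median here. The member furthest below it was Tap2 at -0.42 and the member closest to it H2-D1 at 0.0016. Before that subtraction 5 of 10 were negative and 5 positive, with a median of -0.017, and the median of ratios turned the count to 10 negative, quantile normalization to 8 and the rescaling without the 20 highest genes to 9. Without control 1 and knockdown 1, 1 of 10 was negative. Of all tested genes 105 were called lower and 1121 higher, and 240 and 481 under the median of ratios. The same scaling moved the split from 377 lower and 876 higher to 571 and 608 for knockdown against control, and from 110 and 382 to 163 and 250 for rescue against knockdown.

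**Figure D1:**
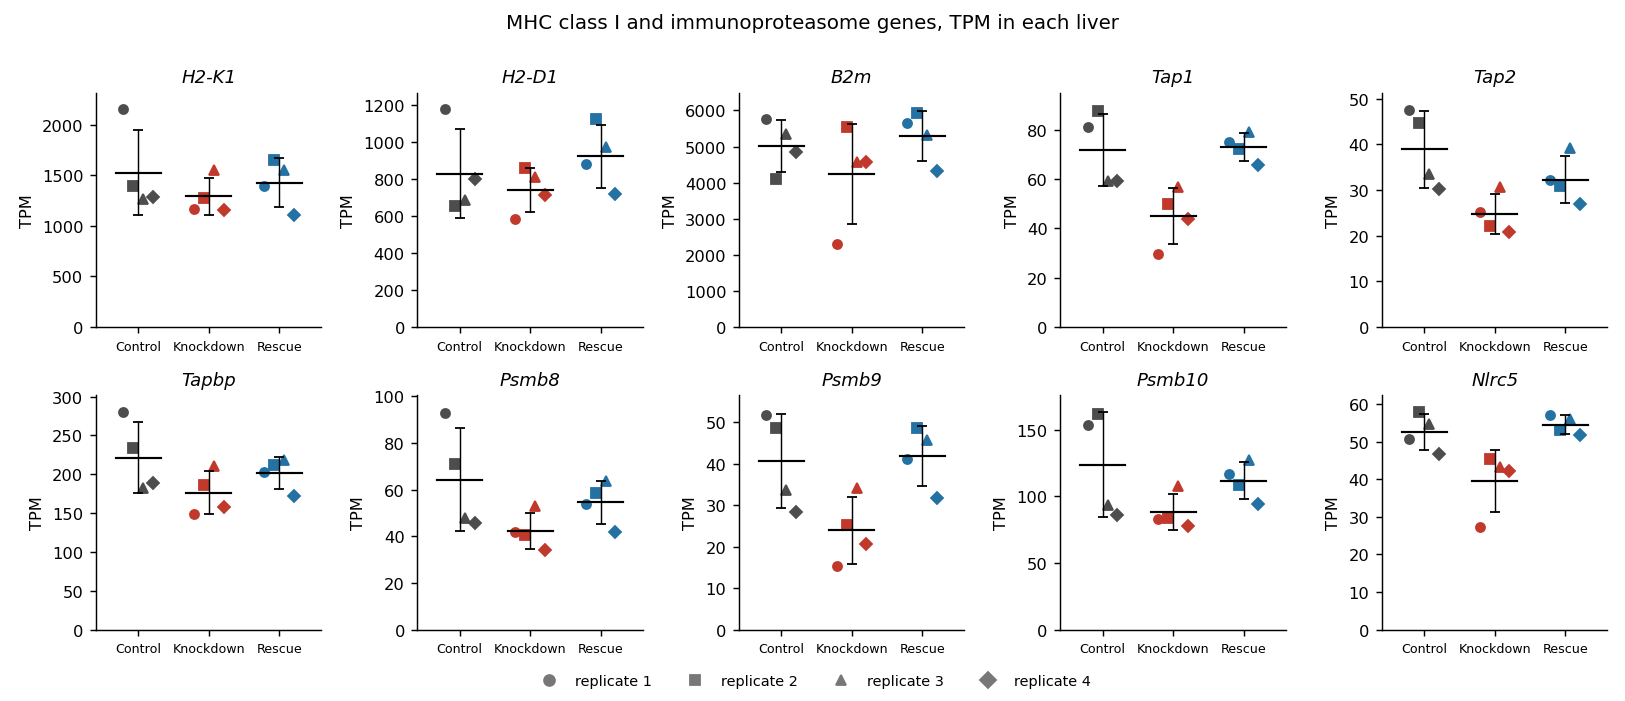
Level in TPM of each of the 10 genes in every sample, with bars at the group mean, whiskers of 1 SD (n = 4) and a marker shape for each replicate number. The knockdown samples of Tap1 and Nlrc5 lie below every control and every rescue sample.

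Nlrc5 encodes the transactivator that binds class I promoters and drives the heavy chains, B2m, Tap1 and Psmb9. Nlrc5 read 50.7, 57.8, 54.6 and 46.8 TPM in the control samples, 27.3, 45.4, 43.1 and 42.1 in the knockdown samples and 57.2, 52.98, 55.96 and 51.7 in the rescue samples. Every knockdown sample lay below every control and rescue sample, with knockdown 1 lowest, and the control and rescue samples overlapped. The log2 fold change in limma was -0.42 ± 0.14 (SE) for knockdown against control (adjusted p = 0.104), short of the 0.5 threshold. It passed the threshold under the median of ratios, at -0.53. For rescue against knockdown it was 0.48 ± 0.14 (limma adjusted p = 0.334), and it was called without knockdown 2 (0.55), knockdown 3 (0.53), knockdown 4 (0.52) or rescue 4 (0.50). Without control 1 and knockdown 1 the log2 fold changes were -0.27 against control and 0.31 for rescue.

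Tap1 and Tap2 encode the subunits of the peptide transporter, and Tapbp the chaperone that bridges it to class I. Tap1 read 81.2, 87.5, 59.1 and 59.3 TPM in the control samples, 29.7, 49.8, 56.6 and 43.6 in the knockdown samples and 74.9, 72.04, 79.2 and 65.6 in the rescue samples. Knockdown 1 was the lowest, all 4 knockdown samples lay below the controls and the rescue samples, and the latter groups overlapped. In TPM, Tap2 stood at 47.5, 44.6, 33.5 and 30.2 in the controls, 25.2, 22.1, 30.7 and 20.9 after knockdown and 32.3, 30.9, 39.1 and 26.8 with rescue. Controls 1 and 2 were the highest, knockdown 3 lay just above control 4, and the rescue samples overlapped both other groups. Tap1 was called lower after knockdown, at a log2 fold change of -0.68 ± 0.18 (SE; limma adjusted p = 0.0624), and higher with rescue, at 0.72 ± 0.18 (limma adjusted p = 0.318). Without knockdown 1 the first value was -0.50, just inside the 0.5 threshold, and without control 1 as well -0.43. Tap2 was called lower after knockdown at -0.63 ± 0.16 (limma adjusted p = 0.0574) and kept its call under every alternative setting and every library left out. Rescue against knockdown gave 0.37 ± 0.16 for Tap2 and was not called, and whether Tap1 and Tap2 differ in this was not tested. The levels of Tapbp were 281, 234, 182 and 188 TPM in the 4 controls, 149, 187, 210.4 and 158 TPM in the 4 knockdown samples and 203, 212, 219 and 172 TPM in the 4 rescue samples. Its groups overlapped, with control 1 highest and knockdown 1 lowest. The Tapbp fold change was -0.32 after knockdown and 0.20 for rescue against knockdown, neither called. The first was -0.20 without control 1 and -0.12 without control 1 and knockdown 1, and the second 0.13 without knockdown 1 and 0.11 under the median of ratios.

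Psmb8 (LMP7), Psmb9 (LMP2) and Psmb10 (MECL-1) are the catalytic subunits that turn the standard proteasome into the immunoproteasome. Psmb9 read 51.7, 48.6, 33.7 and 28.2 TPM in the control samples, 15.4, 25.3, 34.2 and 20.7 in the knockdown samples and 41.2, 48.6, 45.6 and 31.8 in the rescue samples. Knockdown 1 was lowest and knockdown 3 reached into the range of the controls, while knockdown 3 was the only knockdown sample to overlap the rescue group. In TPM, Psmb8 stood at 92.6, 70.7, 47.9 and 45.5 in the controls, 41.9, 40.4, 52.96 and 34.2 after knockdown and 54.00, 58.4, 63.7 and 41.9 with rescue. Controls 1 and 2 stood above the rest, and controls 3 and 4 fell among the knockdown samples. The levels of Psmb10 were 153, 161, 93.2 and 86.2 TPM in the 4 controls, 83.2, 83.9, 108 and 77.5 TPM in the 4 knockdown samples and 117, 108, 127 and 94.2 TPM in the 4 rescue samples. Controls 1 and 2 were again the highest, and controls 3 and 4 sat below knockdown 3. Psmb9 was called lower after knockdown, at a log2 fold change of -0.75 ± 0.24 (SE; limma adjusted p = 0.101), and -0.44 without control 1 and knockdown 1 did not pass. With rescue it was called higher, at 0.82 ± 0.24 (limma adjusted p = 0.354). Psmb8 was called lower after knockdown at -0.55 ± 0.21 (limma adjusted p = 0.175). That call was lost without control 1 (-0.35), control 2 (-0.48), knockdown 2 (-0.53) or knockdown 4 (-0.45), without control 1 and knockdown 1 (-0.35), and with array weights (-0.42). Psmb10 was not called at -0.44 ± 0.19. It passed the threshold under the median of ratios (-0.55), under quantile normalization (-0.52), and without control 3 (-0.55), control 4 (-0.59) or knockdown 3 (-0.54), and fell to -0.27 with array weights, -0.32 without control 1, -0.29 without control 2 and -0.29 without control 1 and knockdown 1. For rescue against knockdown, Psmb8 gave 0.36 and Psmb10 0.34, neither called.

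**Figure D2:**
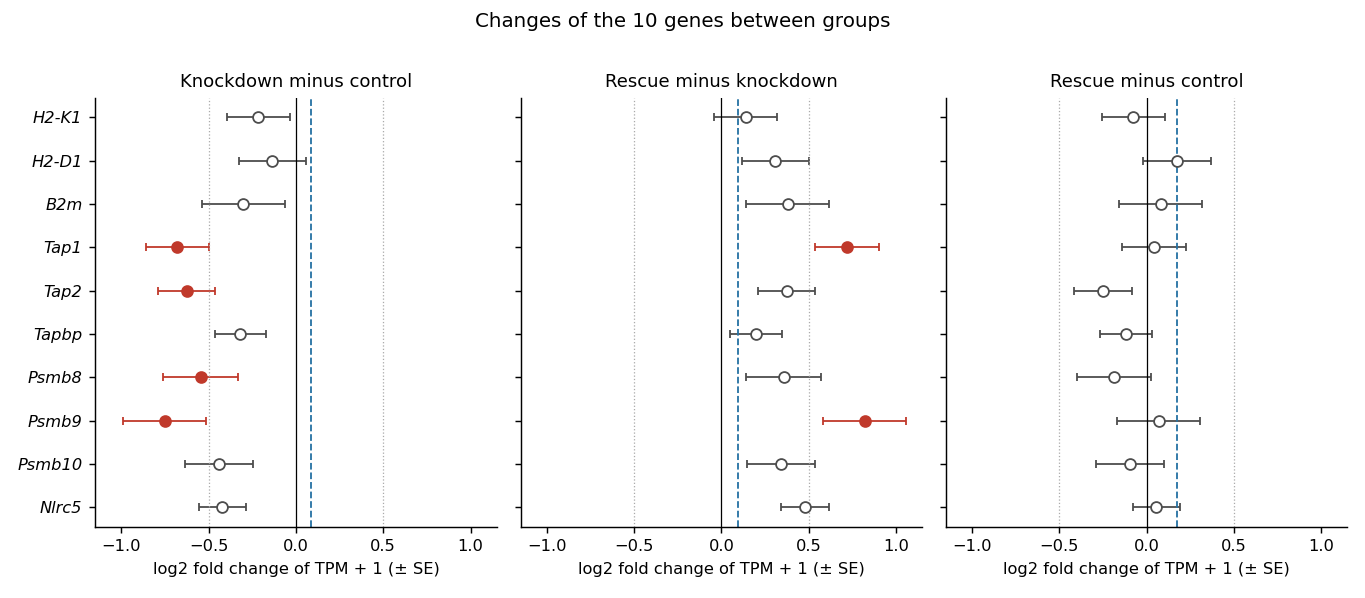
Log2 fold change (TPM + 1) of each gene with its SE for the 3 comparisons, red where called, with a dashed blue line at the median of all tested genes and dotted lines at 0.5 on either side. All 10 genes lie below 0 for knockdown against control and above 0 for rescue against knockdown, and every point of rescue against control lies inside the dotted lines.

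Each immunosubunit takes the place of 1 constitutive subunit, and the log2 ratio of the TPM values within a sample is not changed by a single scaling factor per sample. The constitutive genes Psmb5, Psmb6 and Psmb7 were not called in any comparison by limma, with 0 of 3 at an unadjusted P under 0.05. Psmb6 read 153, 125, 119 and 123 TPM in the controls, 161, 148, 159 and 127 after knockdown and 139, 139.8, 131 and 118 with rescue. For knockdown against control the log2 fold changes of Psmb6 and Psmb7 were 0.19 and 0.18, and that of Psmb5 was 0.083, which became -0.027 under the median of ratios and -0.035 with array weights. The log2 ratio of Psmb9 to Psmb6 was -1.57, -1.37, -1.82 and -2.12 in the controls, -3.39, -2.54, -2.22 and -2.61 after knockdown and -1.75, -1.52, -1.52 and -1.89 with rescue. All 4 knockdown ratios lay below all control and rescue ratios. The difference was -0.97 ± 0.30 (SE) against control and 1.02 ± 0.26 for rescue against knockdown. In a 2-sided exact permutation test each gave p = 0.0286, the smallest that 70 regroupings of 4 against 4 samples allow, and 0.0858 after Benjamini-Hochberg adjustment over the 9 ratio tests.

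The log2 ratio of Psmb8 to Psmb5 was -0.99, -0.84, -1.36 and -1.57 in the controls, -2.16, -1.87, -1.63 and -1.66 after knockdown and -1.37, -1.45, -0.99 and -1.67 with rescue. The knockdown ratios lay below all controls and overlapped the rescue group. Knockdown differed from control by -0.64 ± 0.21 (exact p = 0.0286, adjusted 0.0858) and rescue from knockdown by 0.46 ± 0.19 (exact p = 0.0857, adjusted 0.154). For Psmb10 to Psmb7 the log2 ratio was 0.47, 1.08, 0.22 and 0.035 in the controls, -0.26, -0.36, 0.20 and -0.28 after knockdown and 0.17, 0.045, 0.46 and -0.0027 with rescue. Knockdown 3 reached into the control range, and control 2 was the highest of all. The differences were -0.63 ± 0.26 (exact p = 0.0571, adjusted 0.128) for knockdown and 0.34 ± 0.16 (exact p = 0.114, adjusted 0.171) for rescue against knockdown. Rescue against control gave 0.047 for Psmb9 to Psmb6 (exact p = 0.83), -0.18 for Psmb8 to Psmb5 (exact p = 0.371) and -0.28 for Psmb10 to Psmb7 (exact p = 0.257). Without control 1 and knockdown 1, the knockdown differences were -0.69, -0.46 and -0.59 in the same order.

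**Figure D3:**
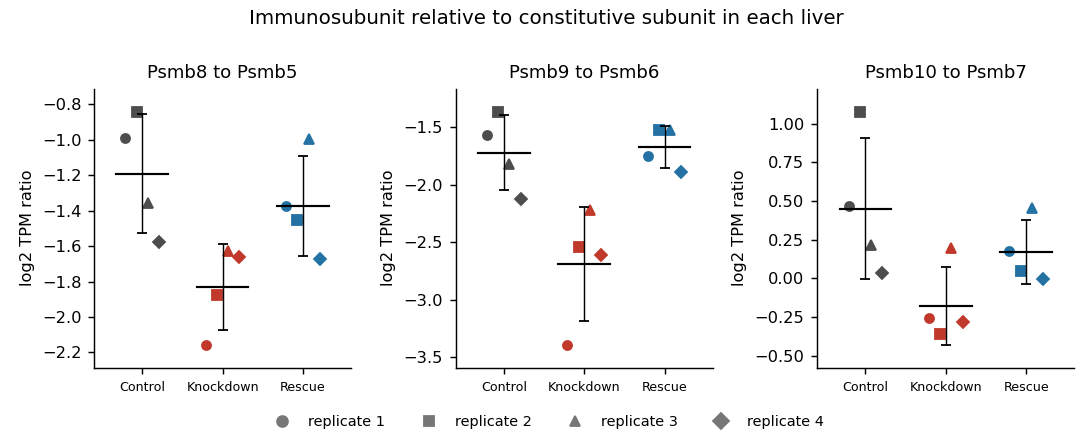
Log2 ratio of TPM of each immunosubunit to the constitutive subunit it replaces, in every sample, with group mean and SD (n = 4). For Psmb9 to Psmb6 the 4 knockdown samples lie below every other sample.

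The class I chains were the most abundant of the 10 genes. The levels of B2m were 5769.6, 4101, 5333 and 4853 TPM in the 4 controls, 2298, 5547, 4558 and 4577 TPM in the 4 knockdown samples and 5639, 5919.8, 5308 and 4319.9 TPM in the 4 rescue samples. Knockdown 1 was the lowest of all samples and the other 3 knockdown samples fell within the range of the controls. H2-K1 read 2152, 1392, 1268 and 1287 TPM in the control samples, 1169, 1279.7, 1554 and 1158 in the knockdown samples and 1392, 1655, 1557 and 1105 in the rescue samples. Control 1 stood far above the remaining samples, which overlapped across the groups. In TPM, H2-D1 stood at 1177, 658, 685 and 802 in the controls, 586, 858, 811 and 717 after knockdown and 881, 1123, 971 and 718 with rescue. Control 1 was again the highest and knockdown 1 the lowest, and the groups overlapped. None of the 3 chains was called in any comparison by limma, with 0 of 3 at an unadjusted P under 0.05. For knockdown against control the log2 fold change was -0.30 for B2m, -0.22 for H2-K1 and -0.13 for H2-D1, and 0.041, 0.0065 and 0.15 without control 1 and knockdown 1. For H2-D1 the sign also turned without control 1 alone (0.046). For rescue against knockdown the values were 0.38, 0.14 and 0.31, and 0.11, 0.10 and 0.20 without knockdown 1. H2-K1 was 0.063 without rescue 2 and 0.045 under the median of ratios. The heavy chain values are uncertain, because 8.79% of the 50-base stretches of the H2-K1 transcript and 14.2% of those of H2-D1 also occur in other genes, most often in H2-D1 and H2-Q1. In Tap1 and Tap2 this share was 0.818% and 0.637%, in Tapbp 2.90%, and 0 in the other 5 genes.

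Position was not used to choose the genes. Of the 10, 7 lie on chromosome 17, in or near the MHC, B2m lies on chromosome 2 (chr2:122147687-122153082), and Psmb10 and Nlrc5 on chromosome 8 (chr8:105935728-105938392 and chr8:94434335-94527272). The 4 genes called lower after knockdown are neighbours: Psmb9, Tap1, Psmb8 and Tap2 occupy 34292 bases (chr17:34182030-34216321, GRCm38.p6) with no other RefSeq gene between them. Within 50000 bases on either side, 4 further genes were tested, the class II genes H2-DMa, H2-DMb2, H2-DMb1 and H2-Ab1. Their log2 fold changes for knockdown against control were 0.12, 0.17, 0.21 and 0.34, none called, and H2-DMa, H2-DMb1 and H2-Ab1 stayed positive under each other scaling. Tapbp (chr17:33919478-33929290), H2-K1 (chr17:33996012-34000619) and H2-D1 (chr17:35263094-35267497), further away on the chromosome, were not called either, and a difference between the neighbours and the other genes was not tested. H2-DMa, H2-DMb1 and H2-Ab1 belong to the 7 class II presentation genes counted below. Without control 1 and knockdown 1 all 7 of these were called higher, the lowest at 0.63, as were 1492 of the 16378 tested genes. These flanking genes were looked up after the values of the members were seen.

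The remaining class I machinery was counted from gene lists. Of 20 other class I genes 16 were tested, and H2-T23, the nonclassical molecule Qa-1, was called lower after knockdown. In TPM, H2-T23 stood at 352, 305, 209 and 202 in the controls, 159.7, 166, 251 and 161 after knockdown and 204, 225, 243 and 194 with rescue. Controls 1 and 2 were the highest and knockdown 3 lay within the control range. Its log2 fold change was -0.52 ± 0.19 (SE; limma adjusted p = 0.145), and the call was lost without control 1 (-0.37), control 2 (-0.44), knockdown 1 (-0.46), knockdown 2 (-0.48) or knockdown 4 (-0.46), with array weights (-0.37) and without control 1 and knockdown 1 (-0.31). The lower calls of the 16 rose from 1 to 3 under the median of ratios, with quantile normalization or without knockdown 3, and to 2 when rescaled without the 20 highest genes, with a pseudocount of 0.1, or without control 3 or 4. None of the 16 was called for rescue against knockdown or control, where 3 and 1 had an unadjusted P under 0.05 in limma. For knockdown against control 3 of the 16 had an unadjusted P under 0.05, all lower. Beside H2-T23 these were H2-T24 (-0.48) and H2-T22 (-0.44), named after their values were seen. For rescue against knockdown the 3 were H2-T22 (0.43), H2-T24 (0.40) and Cd1d1 (0.20), all higher. The median log2 fold change of these 16 was -0.037 after knockdown, with 8 negative and 8 positive (11 and 5 under the median of ratios), and 0.17 for rescue against knockdown. After knockdown 5 were negative and 11 positive without control 1 and knockdown 1, with a median of 0.10 and 2 called higher and 0 lower. The most abundant was H2-Q10, a secreted class I molecule of liver, at a mean of 947 TPM.

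In limma 0 of 8 other loading factors (such as Calr), 0 of 11 other 20S subunits, 0 of 9 proteasome activators and assembly factors, 0 of 18 subunits of the 19S regulatory particle and 0 of 8 factors that bind class I promoters were called in any comparison. For knockdown against control, the genes at an unadjusted P under 0.05 in these lists were 2 of 8, 0 of 11, 0 of 9, 0 of 18 and 1 of 8, with median log2 fold changes of 0.014, -0.0013, -0.037, 0.085 and 0.048 against 0.087 over all tested genes. For rescue against knockdown those counts were 2, 0, 0, 0 and 3, with medians of 0.11, 0.13, 0.15, 0.0058 and 0.21 against 0.093. The 2 loading factors were Tapbpl (-0.27) and Calr (0.27) after knockdown, and Tapbpl (0.45) and Erap1 (0.34) for rescue against knockdown. Tapbpl and Erap1 were named after their values were seen. For rescue against control they were 2, 0, 1, 1 and 3. The activator subunits Psme1 and Psme2, which interferon also raises, belong to the 9 uncalled genes, and Psme1 was their most abundant at a mean of 167 TPM.

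Genes of the interferon receptor and signalling list were called in the same comparisons. Of 12 genes, 1 was called lower after knockdown (Socs1), against 2.30% of all tested genes, and 2 higher with rescue than after knockdown (Socs1 and Irf1), against 2.33%, with median log2 fold changes of -0.058 and 0.17, and 0 of 12 were called for rescue against control in limma, where 2 had an unadjusted P under 0.05. Without control 1 and knockdown 1, 0 of 12 were called in either of the first comparisons, and the medians were 0.10 and 0.073. In TPM, Irf1 stood at 62.7, 78.4, 61.6 and 44.9 in the controls, 27.1, 58.4, 56.4 and 39.3 after knockdown and 70.8, 65.6, 69.03 and 62.2 with rescue. IRF1 is the factor that interferon gamma induces to drive class I and immunoproteasome genes. Its 4 knockdown samples lay below all rescue samples and overlapped the controls, and rescue against knockdown gave 0.61 ± 0.22 (SE; limma adjusted p = 0.402), or 0.39 without knockdown 1, which is not called. For knockdown against control Irf1 gave -0.48 and was not called. The lower calls of the list in that comparison were 2 under each of the 3 other scalings and without control 4, knockdown 2 or knockdown 3, and 0 with a minimum of 5 TPM (Socs1 is then not tested), with array weights, or without control 1, 2 or 3, knockdown 1 or knockdown 4.

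Socs1, the feedback inhibitor of interferon signalling, read 1.56 to 5.64 TPM over the 12 samples. Its log2 fold change was -0.61 ± 0.24 (SE; limma adjusted p = 0.177) after knockdown, a call lost without control 1 (-0.58), control 2 (-0.53), control 3 (-0.56), knockdown 1 (-0.45) or knockdown 4 (-0.53) and with array weights (-0.46). For rescue against knockdown it was 0.65 ± 0.24 (limma adjusted p = 0.404), lost without knockdown 1 (0.49), knockdown 4 (0.57) or rescue 3 (0.57). Of 8 interferon ligand genes none reached the minimum mean of 1 TPM. Ifng was the most abundant at a mean of 0.474 TPM, 2 of the 8 were at 0 in every sample, and their summed level was 0.915, 0.360, 0.358 and 0.478 TPM in the controls, 0.274, 0.936, 0.518 and 0.689 in the knockdown samples and 0.687, 0.952, 0.729 and 0.212 in the rescue samples. The part of interferon in the class I values was not tested.

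**Figure D4:**
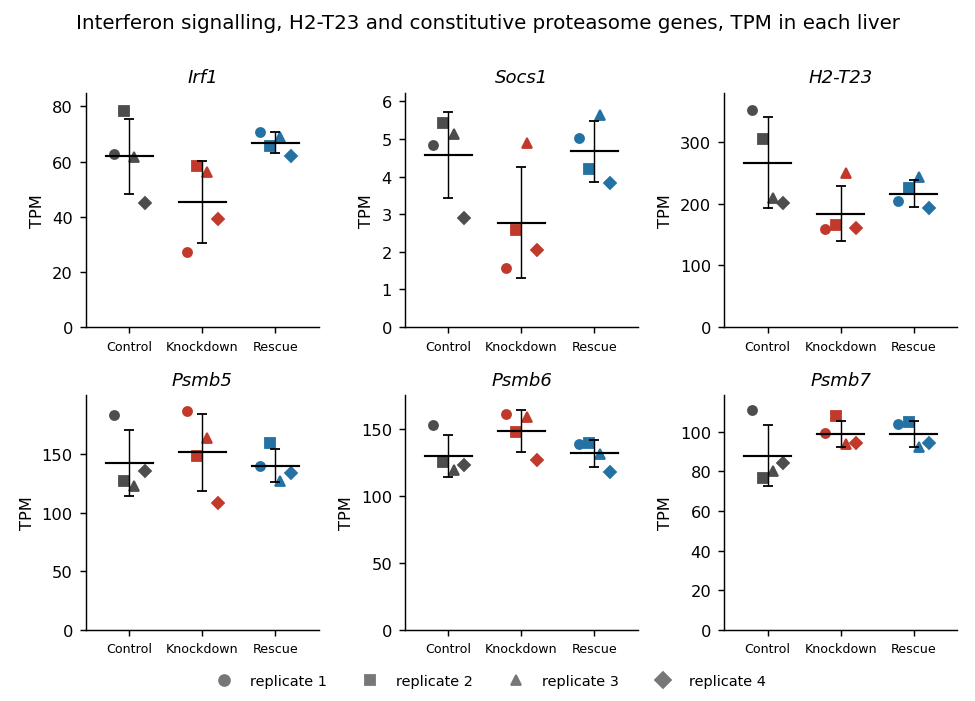
Level in TPM, in every sample, of the interferon signalling genes Irf1 and Socs1, the class I gene H2-T23 and the constitutive subunits Psmb5, Psmb6 and Psmb7, with group mean and SD (n = 4). The knockdown samples of Irf1 lie below every rescue sample, and the 3 groups of Psmb5, Psmb6 and Psmb7 overlap.

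The members were compared with each other and with all tested genes by Pearson r over the 12 samples, on log2(TPM + 1). Against the mean of the other 9, r ran from 0.618 for B2m, 0.687 for H2-D1 and 0.717 for Nlrc5 to 0.903 for Tap1, 0.948 for Tapbp and 0.962 for Psmb9. Outside the 10, the genes most like their mean were Oasl1 (r = 0.970), Oasl2 (0.961), Nub1 (0.960), Mx1 (0.955), Apol10b (0.949), Ifit3b (0.945), Calhm6 (0.944) and Nmi (0.939). These r are descriptions over samples that include the 3 groups and the libraries that stand apart. Oasl1 read 58.5, 51.02, 39.2 and 33.4 TPM in the control samples, 21.2, 35.5, 36.4 and 26.6 in the knockdown samples and 38.6, 47.02, 43.2 and 33.9 in the rescue samples. Control 1 was the highest and knockdown 1 the lowest, and control 4 fell among the knockdown samples. In TPM, Ifit3b stood at 19.3, 14.4, 11.5 and 7.69 in the controls, 3.94, 7.29, 8.32 and 6.25 after knockdown and 14.4, 12.2, 13.1 and 10.4 with rescue. Knockdown 1 was again the lowest, and all rescue samples exceeded all knockdown samples. For knockdown against control the log2 fold changes of the 8 ran from -0.90 (Ifit3b) to -0.34 (Nub1), and for rescue against knockdown from 0.31 (Nub1) to 0.96 (Apol10b). Only Calhm6 of the 8 had a limma adjusted p under 0.05, at 0.0458 with a log2 fold change of -0.86 after knockdown. The 8 were picked by these values, so their changes are given as a description.

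Immune cells carry class I genes at high levels, so their markers are given beside the members. Ptprc, found on all leukocytes, read 17.3, 8.50, 9.62 and 11.97 TPM in the controls, 6.54, 15.9, 12.6 and 11.3 after knockdown and 13.1, 13.9, 12.1 and 10.4 with rescue. It was highest in control 1 and lowest in knockdown 1, but its group means differed by -0.042 and 0.14 (log2) for knockdown against control and rescue against knockdown, and by 0.37 and -0.086 without control 1 and knockdown 1. The 13 T and NK cell markers summed to 124, 37.7, 44.04 and 63.9 TPM in the controls, 42.2, 75.7, 73.3 and 62.8 in the knockdown samples and 71.7, 90.1, 71.6 and 65.9 in the rescue samples. Their most abundant gene was Ccl5 (mean 18.6 TPM), 12 of 13 were tested, and 1 of the 13 was at 0 in at least 1 sample. None was called for knockdown against control in limma (0 at an unadjusted P under 0.05), and Gzmb, a granule protease, was called higher for rescue against knockdown at 1.03 ± 0.39 (SE; limma adjusted p = 0.411). Without knockdown 1 Gzmb was not called, at 0.62. Of the 12 tested, 6 were negative and 6 positive for knockdown against control, with a median of 0.070. For rescue against knockdown 3 were negative and 9 positive, with a median of 0.070. The 7 class II presentation genes summed to 1775, 414, 409 and 679 TPM in the controls, 695, 1259.8, 1133 and 790.5 in the knockdown samples and 878, 1201, 946 and 754 in the rescue samples, with Cd74 the most abundant (mean 569.6 TPM). They had positive fold changes in 7 of 7 for knockdown against control, where 10731 of the 16378 tested genes were positive. All 7 were positive under each other scaling too. Their median was 0.34 and 0 were called (0 at an unadjusted P under 0.05 in limma). Leaving out control 1 raised that count to 4, and leaving out control 1 and knockdown 1 to 7, while T and NK cell markers went from 0 to 3 and 6 called higher. The higher calls over all 16378 tested genes went from 876 to 1279 and 1492 with these samples left out. Without control 2, knockdown 2 or knockdown 3, 1 T and NK cell marker was called lower. Over the same change of samples the called class I members went from 4 to 1 and their median from -0.43 to -0.28, with 7 of 10 negative and the 3 class I chains positive. For rescue against control 1 of 7 class II genes was called higher, the transactivator Ciita at 0.55, named after its values were seen. That count was 7 without control 1, 4 with array weights, and 0 without control 2, 3 or 4, without rescue 1, 2 or 3, with no filter, and under the 3 other scalings. For rescue against control the higher calls over all tested genes were 1121 as reported, 1573 without control 1 and 1252 with array weights.

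Among other cells, the 9 Kupffer cell and macrophage markers summed to 841, 569.8, 616 and 888 TPM in the controls, 579, 887, 747 and 779 in the knockdown samples and 639, 746, 694 and 798 in the rescue samples, with Cd5l (mean 309 TPM) the most abundant. After knockdown 5 were negative and 4 positive, with a median of -0.016. Marco was called lower after knockdown at -1.04 ± 0.40 (SE; limma adjusted p = 0.164), but not without control 2 (-0.79), knockdown 1 (-0.90) or knockdown 4 (-0.87). It was also called lower with rescue than in the controls at -0.93, but not without control 2 (-0.69), control 3 (-0.88), rescue 1 (-0.75), rescue 2 (-0.87) or rescue 3 (-0.90). In the list of 9, 1 was called lower and 0 higher after knockdown, which became 1 and 3 without control 1 and knockdown 1, 2 and 1 without control 1 or control 4, and 2 and 0 without knockdown 3 or with a pseudocount of 0.1. The 6 B cell markers, of which 4 were tested, summed to 31.9, 19.8, 14.7 and 20.2 TPM in the controls, 25.1, 46.8, 49.4 and 36.2 in the knockdown samples and 28.5, 28.5, 21.1 and 21.5 in the rescue samples, with Ighm (mean 21.04 TPM) the most abundant. Ighm was called higher after knockdown at 0.95 ± 0.30 (SE; limma adjusted p = 0.103), opposite in sign to the members, and 1.47 without control 1 and knockdown 1. The 6 neutrophil markers, of which 5 were tested, summed to 245, 211, 123 and 110.3 TPM in the controls, 266, 129, 281 and 165 in the knockdown samples and 97.2, 116, 107 and 150.1 in the rescue samples, with S100a9 (mean 95.8 TPM) the most abundant. S100a8 and S100a9 were called lower for rescue against knockdown at -0.78 and -0.84, again opposite to the members, and none of the 5 was called after knockdown (0 at an unadjusted P under 0.05 in limma). Both calls were lost without knockdown 1 (-0.63 and -0.69) or knockdown 3 (-0.61 and -0.67), and that of S100a8 without rescue 1 (-0.69) or rescue 3 (-0.71).

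The 6 sinusoidal endothelium markers summed to 182, 104, 131 and 167 TPM in the controls, 179, 228, 175 and 196 in the knockdown samples and 166, 179.8, 171 and 202 in the rescue samples, with Stab2 (mean 43.9 TPM) the most abundant. Stab2 (0.54 ± 0.13, limma adjusted p = 0.0476) and Oit3 (0.53 ± 0.15, adjusted p = 0.0679) were called higher after knockdown. Under the median of ratios they stood at 0.43 and 0.43, under the threshold, as they did with quantile normalization (0.47 and 0.45), with array weights (0.49 and 0.44), without control 2 (0.41 and 0.39) or knockdown 2 (0.46 and 0.46), and Oit3 without control 3 (0.48). The higher calls of this list rose from 2 to 4 without control 1 and knockdown 1, and to 3 without control 1 or control 4. Over all tested genes the higher calls went from 876 to 1492, 1279 and 941 in these fits. The 6 stellate cell markers summed to 179, 87.4, 97.9 and 122 TPM in the controls, 144, 174, 135 and 133 in the knockdown samples and 134, 150.3, 134 and 123 in the rescue samples, with Dcn (mean 48.2 TPM) the most abundant and 0 called in limma (1 at an unadjusted P under 0.05 after knockdown). After knockdown 3 of them were called higher without control 1, and 3 without control 1 and knockdown 1. The 8 hepatocyte markers were negative in 5 and positive in 3 after knockdown, with a median of -0.064 and a highest value of 0.14. Among them Tat, a glucocorticoid-induced enzyme of tyrosine breakdown, and Apoa1 were called lower after knockdown at -0.80 and -0.60, and against control they were also called lower with rescue, at -0.81 and -0.60. After knockdown Tat was -0.52 without knockdown 2 and -1.14 without control 1 and knockdown 1. The Apoa1 calls were lost with quantile normalization (-0.32 and -0.26), with array weights (-0.46 and -0.48) and with no filter, without control 2 (-0.48 and -0.48) and, after knockdown, without knockdown 2 (-0.48). For rescue against knockdown limma called 0 of 9 Kupffer cell and macrophage, 0 of 4 B cell, 0 of 6 endothelial, 0 of 6 stellate and 0 of 8 hepatocyte genes, with 1, 1, 0, 0 and 2 at an unadjusted P under 0.05. Of the 4 B cell genes 2 were called lower there under each of the 3 other scalings, and 1 with array weights. For rescue against control it called 0 of 12 T and NK cell, 0 of 4 B cell, 0 of 5 neutrophil, 0 of 6 endothelial and 0 of 6 stellate genes, with 0, 0, 0, 3 and 0 at that level. Without control 1 that comparison called 4 T and NK cell and 2 stellate genes higher, and without control 1 and knockdown 1 it called 6 and 2. The higher calls over all tested genes went from 1121 to 1573 and 1630 with these samples left out. Under each of the 3 other scalings rescue against control called 1 T and NK cell gene lower. No marker in these lists was at 0 in every sample. The part of these cells in the class I values was not tested.

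**Figure D5:**
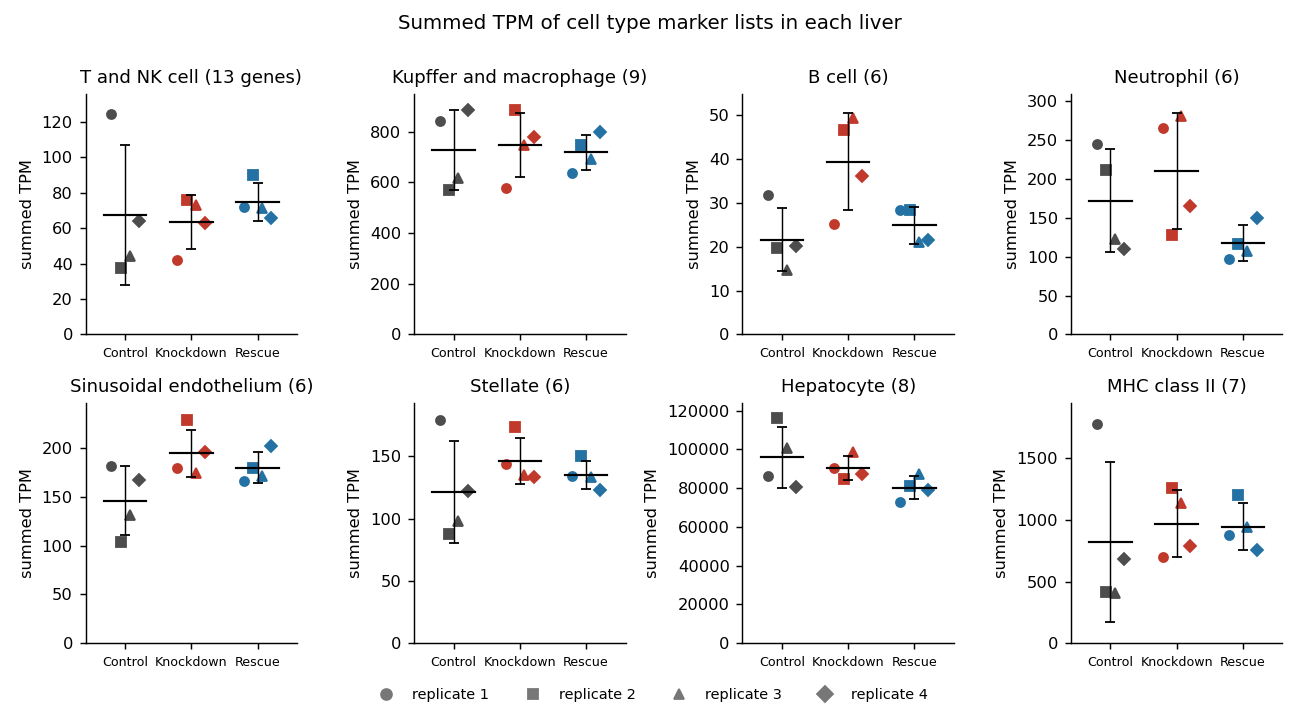
Summed level in TPM of each cell type marker list except Ptprc, and of the class II genes, in every sample, with group mean and SD (n = 4). Control 1 is the highest sample in the class II and T and NK cell sums.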

How the data were processed

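RNA-seq of liver was measured in 12 samples, 4 in each of 3 groups taken from the sample titles. The deposited table gives TPM, which the authors scaled to the same total in every sample. They trimmed reads with fastp 0.23.2, checked them with FastQC 0.11.8, aligned with HISAT2 2.2.1.0 to GRCm38.p6 and counted genes with featureCounts (Subread 2.0). Depth per sample is unknown. Features with a mean of at least 1 TPM (16378 of 55385) were fitted in limma 3.58.1 (R 4.3.3) on log2(TPM + 1), with all 3 groups in 1 model and empirical Bayes moderation with a mean trend. P-values were adjusted by Benjamini-Hochberg over all tested features. The fit was tested on simulated data. Subunit ratios were compared by exact permutation of samples, 2-sided. The members and lists were chosen with earlier results of these data known. Named genes are the 10 members, Psmb5, Psmb6 and Psmb7, up to 6 per other list that were called in knockdown against control or rescue against knockdown, and the 8 tested genes with the highest r to the mean of the z-scored members. Alternatives were a pseudocount of 0.1, no filter or 5 TPM, 3 other scalings (median of ratios, quantile, and a rescaling without the 20 highest genes), only 2 groups, no trend, array weights, a replicate block, and each replicate left out. Leaving out control 1 and knockdown 1 together was chosen after seeing the data. They were the highest and the lowest sample in the mean of the z-scored members. Shared 50-base stretches were counted in GENCODE transcripts. Promoters are from RefSeq (GRCm38.p6). A listed gene is not reported here. Python 3.11.15, pandas 2.3.3, NumPy 2.4.6 and matplotlib 3.10.9 were used.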

Additional observations from a re-analysis of the deposited data

Results flagged for a closer look

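H2-K1 in control 1 was far above the other controls, at 2152 TPM against 1268 to 1392 TPM, a gap of 0.86 of the group's range. It was 1 of 39 groups of 4 samples examined in this way, and chance alone picks about 1 in 20.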

How the results depend on the processing

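The count of 4 members called after knockdown became 1 without control 1 and knockdown 1, an alternative chosen after seeing the data, 6 with median of ratios, 5 with quantile normalization, 3 with array weights, and 3 to 5 with 1 replicate left out. Over all tested genes the lower calls, 377 as reported, were 307, 571, 529, 355 and 295 to 460 in the same order. Members with adjusted p under 0.05 after knockdown, 0 as reported, were 2 with a minimum of 5 TPM, 3 with median of ratios, 1 with quantile normalization, 1 when rescaled without the 20 highest genes, and 0 to 3 with 1 replicate left out, 3 without knockdown 3. The lower adjusted calls over all tested genes, 130 as reported, were 169 (of 10948), 351, 288, 197 and 37 to 242 in that order. Members called for rescue against knockdown were 2 to 4 with 1 replicate left out, where the higher calls over all tested genes ran from 252 to 721. The log2 fold changes run under the alternatives were those of the 10 members in all 3 comparisons, of Psmb5, Psmb6 and Psmb7 for knockdown against control, and of the named list genes in the comparisons that called them. The genes named for their r were not run. Of these values, 814 kept their direction and their side of the threshold, 65 kept the direction and lost the call, 11 gained it and 39 changed sign. Most changes of sign were in rescue against control, where fold changes were near 0. With median of ratios that comparison gave -0.030 for H2-D1, -0.12 for B2m, -0.16 for Tap1, -0.13 for Psmb9 and -0.15 for Nlrc5. Quantile normalization gave -0.11 for Tap1, -0.10 for Psmb9 and -0.10 for Nlrc5. Rescaling without the 20 highest genes gave -0.014 for B2m, -0.051 for Tap1, -0.024 for Psmb9 and -0.037 for Nlrc5. Array weights gave 0.054 for H2-K1, 0.0031 for Tapbp, 0.037 for Psmb8 and 0.12 for Psmb10. Without control 1 and knockdown 1 it gave 0.10 for H2-K1, 0.0017 for Tapbp, 0.0063 for Psmb8 and 0.024 for Psmb10. For knockdown against control the same samples left out gave 0.0065 for H2-K1, 0.15 for H2-D1 and 0.041 for B2m, and Psmb5 was -0.027 with median of ratios and -0.035 with array weights. With 1 replicate left out, rescue against control ranged from -0.15 to 0.10 for H2-K1, -0.012 to 0.18 for B2m, -0.043 to 0.14 for Tap1, -0.21 to 0.0017 for Tapbp, -0.33 to 0.0063 for Psmb8, -0.086 to 0.20 for Psmb9 and -0.25 to 0.048 for Psmb10, and the Psmb9 to Psmb6 ratio from -0.087 to 0.17. Knockdown against control ranged from -0.23 to 0.046 for H2-D1 and -0.026 to 0.23 for Psmb5. The cause was not tested beyond the samples or scaling that each alternative names. Same-numbered samples were checked for pairing: r of their deviations ran from -0.24 to 0.036 for knockdown and control, -0.034 to 0.15 for rescue and knockdown and -0.091 to 0.099 for rescue and control, and 0 of 8, 6 of 8 and 2 of 8 samples were closest to the sample of their own number. With replicate number as a block, 4, 2 and 0 members were called in the 3 comparisons, and 2 stellate cell markers were called higher after knockdown (0 as reported), 2 Kupffer cell and macrophage markers lower after knockdown (1 as reported) and 0 class II genes higher for rescue against control (1 as reported). Without depth no limit of detection can be given.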
